A study of Mus musculus with 18 samples.

Results

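The chromatin of the young retina was compared between eyes put under pressure and the opposite eyes of 3-month-old mice, using 6 lists of ATAC-seq peaks, 3 per side, out of 18 lists in the series. ATAC-seq marks open chromatin by letting a transposase insert adapters where DNA is accessible, and a peak is a stretch where the inserted ends pile up above the local background. All mice were WT. The 3mo IOP libraries came from retinas whose intraocular pressure (IOP) was raised on one side to a constant 30 mmHg, kept there for 1 hour, and the 3mo contralateral control libraries from the eyes left without pressure. Per the labels both were collected on day 2, while the text of the study names a later day. The 12 other lists (18mo IOP, 18mo contralateral control, 3mo untreated and 18mo untreated, 3 each, all WT) were used only to see where the same regions were called again. The labels also limit the groups: a shared treatment text mentions the kinase inhibitor dasatinib without placing any library in a drug arm, and the control eyes sat in animals that had been through the procedure on the other side.

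Peaks of the 6 lists that shared 1 bp or more were joined, which gave 75496 merged regions. A region was gained when all 3 IOP lists and 0 of 3 contralateral lists called it, and lost in the reverse case. There were 159 gained regions (0.211% of all merged regions) and 180 lost regions (0.238%). These regions were chosen by their calls, so the calls themselves describe them and test nothing. A region that is not called may be open but under the threshold of the peak caller.

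Most of the accessible chromatin in an adult retina belongs to rods, the most numerous cells, and a change in a rarer cell such as a Mueller glial cell or a ganglion cell is diluted in whole tissue. Raised pressure in the eye strains ganglion cell axons and glia. Mueller glia answer many kinds of retinal injury through cytokine receptors that activate STAT transcription factors, which bind a palindromic DNA element, and through AP-1, a family of early response factors. Distal elements in introns and between genes commonly respond to such signals, while promoters of expressed genes tend to stay open.

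The sequences below are the 200 bases of the plus strand around the median summit (mm10, GRCm38). They come from the 3 highest-ranked gained and lost regions and from 2 gained regions of genes from the pathway lists. The 2 list regions could be shown only if their window held a searched motif. The STAT element in 4 of the 5 gained windows is therefore not a share of gained regions. Capitals mark TTCNNNGAA (STAT) in Galnt7, Cdh20, Ncam1, Col4a1 and Lrrc4c, TGACTCA (AP-1) in Kremen1, TAATCC or its reverse complement (CRX and OTX2) in Ccdc186, and CAGCTG (E-box) in Dyrk2. Further matches to searched motifs, such as AP-1 in Col4a1 and TEAD in Dyrk2, were not marked.
Galnt7 (gained, chr8:57594260-57594459): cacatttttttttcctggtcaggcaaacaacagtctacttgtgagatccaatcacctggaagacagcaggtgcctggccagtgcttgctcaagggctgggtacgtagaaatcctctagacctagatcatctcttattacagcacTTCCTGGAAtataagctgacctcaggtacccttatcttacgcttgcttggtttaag
Cdh20 (gained, chr1:104920318-104920517): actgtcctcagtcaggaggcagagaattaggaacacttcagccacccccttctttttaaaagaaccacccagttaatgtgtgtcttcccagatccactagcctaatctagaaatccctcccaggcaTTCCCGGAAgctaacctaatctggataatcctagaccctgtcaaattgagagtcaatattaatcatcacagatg
Ncam1 (gained, chr9:49968450-49968649): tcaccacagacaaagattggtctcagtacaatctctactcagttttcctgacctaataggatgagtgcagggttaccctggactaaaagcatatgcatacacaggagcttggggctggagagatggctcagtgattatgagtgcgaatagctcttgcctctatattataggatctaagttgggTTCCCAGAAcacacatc
Col4a1 (gained, chr8:11244366-11244565): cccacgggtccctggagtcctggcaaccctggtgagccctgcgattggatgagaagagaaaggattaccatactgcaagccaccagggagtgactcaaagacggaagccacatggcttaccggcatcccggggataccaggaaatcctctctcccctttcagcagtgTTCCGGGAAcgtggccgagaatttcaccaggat
Kremen1 (gained, chr11:5219122-5219321): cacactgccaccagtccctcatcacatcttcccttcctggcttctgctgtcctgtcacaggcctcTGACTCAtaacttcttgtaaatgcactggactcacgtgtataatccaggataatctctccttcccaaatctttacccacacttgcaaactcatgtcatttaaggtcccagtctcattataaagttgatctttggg
Lrrc4c (lost, chr2:96337472-96337671): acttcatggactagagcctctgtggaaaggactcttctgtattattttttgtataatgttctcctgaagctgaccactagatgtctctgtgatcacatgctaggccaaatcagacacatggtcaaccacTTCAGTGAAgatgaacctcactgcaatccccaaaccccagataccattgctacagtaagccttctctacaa
Ccdc186 (lost, chr19:56773690-56773889): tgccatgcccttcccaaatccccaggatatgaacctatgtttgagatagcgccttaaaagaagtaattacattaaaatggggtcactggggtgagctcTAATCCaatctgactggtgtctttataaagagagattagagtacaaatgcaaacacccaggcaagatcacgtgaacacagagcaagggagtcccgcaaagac
Dyrk2 (lost, chr10:118820994-118821193): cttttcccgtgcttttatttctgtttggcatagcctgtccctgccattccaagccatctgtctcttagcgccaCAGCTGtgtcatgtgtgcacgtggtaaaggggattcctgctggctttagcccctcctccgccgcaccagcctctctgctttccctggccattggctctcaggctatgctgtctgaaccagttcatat

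The STAT element was more frequent in gained than in lost, mixed or all merged regions. It was present in 26 of 158 gained windows (16.5%; 1 gained region had no reference sequence), in 9 of 180 lost windows (5.00%) and in 4.39% of the windows of all merged regions. Among the 5225 regions called in 3 of the 6 lists but with both sides represented ("mixed" regions), the share was 4.33%. Mixed regions match the gained and lost ones in the number of calls but not in their source, since contralateral replicate 2 called 92.8% of them and contralateral replicates 1 and 3 called 22.1% and 30.4%. On the IOP side the share was lower next to the rule: 8.33% of the 756 regions called in 2 IOP and 0 contralateral lists and 6.08% of the 1153 regions called in 3 IOP and 1 contralateral list held the element. On the contralateral side the corresponding shares were 5.00% at 0 and 3 lists, 4.59% at 0 and 2, and 5.07% at 1 and 3. The 4 gained regions of highest rank (Galnt7, Cdh20, Ncam1 and Lmo1) all held it. By rank, 4 of the first 12 gained regions held the element, then 6 of the next 28, 11 of the next 40 and 5 of the last 79. Of the 26, 18 lay in introns, 7 between genes, 1 at a promoter and 0 in exons, and the element lay a median of 48.0 bp from the median summit. The share fell to 7.56% without 3mo contralateral control replicate 2, 9.54% without 3mo IOP replicate 2, 10.6% without 3mo IOP replicate 3 and 8.35% with only the 4 libraries of longer peaks, each over a larger set of gained regions. In windows of 100 and 400 bp it was 7.59% and 24.7%, beside 2.03% and 9.69% of all merged regions.

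Other elements divided the sets differently. TAATCC, bound by the photoreceptor factors CRX and OTX2, was as frequent in gained (23.4%) as in lost windows (22.8%), and less so in mixed (13.4%) and all regions (12.4%). TAATTA, a general homeodomain element, was in 12.7% of gained, 6.67% of lost, 3.95% of mixed and 3.64% of all windows. AP-1 (TGACTCA) was in 9.49% of gained, 6.11% of lost and 4.93% of all windows. CAGCTG, an E-box of basic helix-loop-helix factors, went the other way, with 13.9% of gained, 20.6% of lost and 17.5% of all windows. CATTCC (TEAD), TGCTGAC (a MARE half-site, of MAF factors) and AGGTCA (a nuclear receptor half-site) were at 8.86%, 4.43% and 13.9% of gained and 8.33%, 5.00% and 17.8% of lost windows, beside 9.54%, 4.65% and 14.0% of all windows. CTCF, the insulator protein, had a match in 1.90% of gained, 2.78% of lost and 5.86% of all windows. Each motif was searched on both strands. No searched motif contains another, though TAATCC and TAATTA share 4 letters. Median GC content was 48.5% in gained, 47.5% in lost, 51.5% in mixed and 53.0% in all windows, and its part in these shares was not tested.

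**Figure D1:**
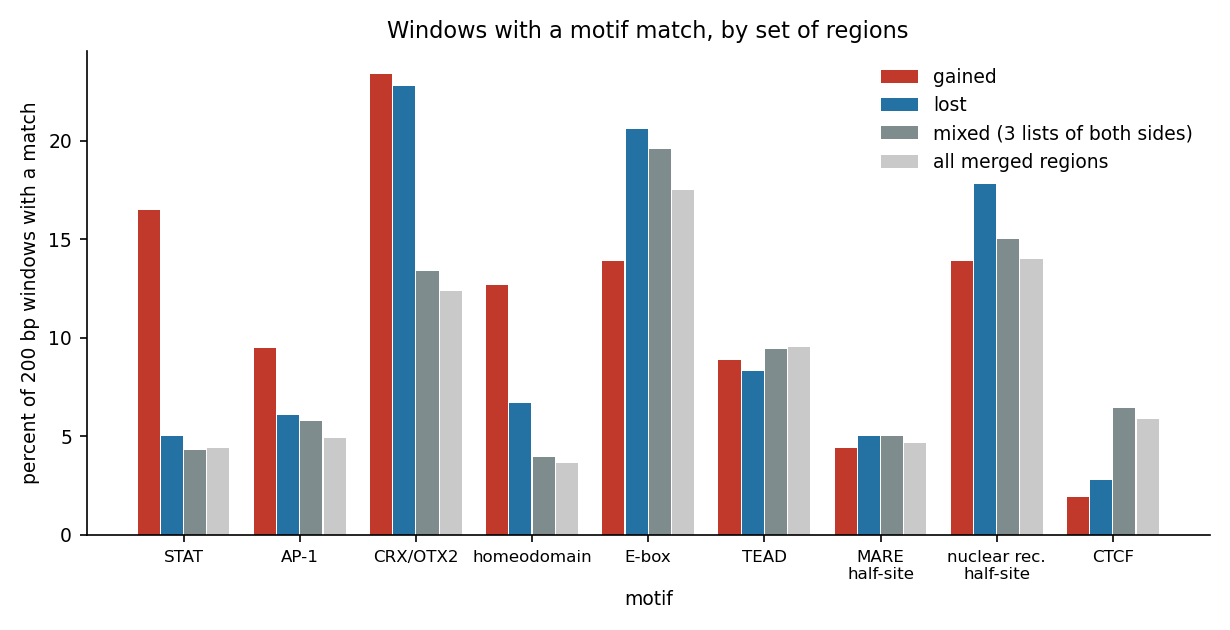
Percent of 200 bp windows with at least 1 match on either strand (y axis) for each of 9 motifs (x axis), in gained, lost, mixed and all merged regions. The bar of gained regions for STAT stands at 16.5% beside 5.00% in lost and 4.39% in all regions, while the CRX/OTX2 bars of gained and lost regions are nearly level at 23.4% and 22.8%.

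The regions with the highest rank are described by their percentile, which is the place of a peak among the −log10 q values of its own list (100 is the strongest peak). The intron of Galnt7, a GalNAc transferase of the O-linked glycan pathway, held the highest gained region (chr8:57594003-57594650), at percentiles 59.4, 67.7 and 73.3 in the 3 IOP lists. The second (chr1:104920187-104920873) lay in an intron of Cdh20, a cadherin, at 61.9, 61.4 and 76.4. The Cdh20 promoter was called in 3 IOP and 0 contralateral lists, though no gained region had its median summit there. The third (chr9:49968353-49968755) lay between genes, at position -169625 bp from the start of Ncam1 (negative is upstream), which encodes a neural adhesion molecule. Its percentiles were 50.7, 69.0 and 73.2. In all 3 regions every IOP library ranked the peak above the middle of its list. The summit stood 5.77 to 6.96 times over the local background in Galnt7, 7.25 to 10.0 times in Cdh20 and 5.32 to 7.52 times near Ncam1.

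Behind them came a region at -17157 bp from the start of Lmo1, a LIM-domain transcription cofactor, at 54.9, 68.0 and 65.1 (chr7:109191936-109192633). The SD over the 3 libraries was 6.83. It was larger elsewhere: the region near Slc27a4, a fatty acid transporter, had a mean of 55.3 ± 27.9 (SD, n = 3), and the one near Tle4, a corepressor, 55.6 ± 25.0. Pkd1, Frmd4a, Ccdc194, Lrrc66 and Zbtb7c, also among the first 12, had mean percentiles from 52.8 to 56.6.

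The lost regions ranked lower. Their highest mean percentile was 43.9 against 66.8 in gained regions, and the medians were 21.8 and 25.9, beside 23.3 in mixed and 31.5 in all merged regions. The highest (chr2:96337461-96337642) lay in an intron of Lrrc4c, which encodes a netrin-G ligand at synapses, at 27.5, 53.8 and 50.5 in the 3 contralateral lists. A region 39893 bp from the start of Ccdc186 (chr19:56773646-56773925) followed at 40.8, 44.9 and 45.8, the least variable of the lost regions named here by rank. One near Dyrk2, a kinase, was at 34.9, 65.6 and 28.7 (chr10:118821012-118821232), so that contralateral replicate 2 raised its mean. The next 9 were in or near Pcnx, Myo6, Itga9, Itpkb, Tpst1, Rabep1, Gch1, Rock2 and Lrig2, with means from 35.2 to 40.9. The region of Rabep1 was in an untranslated part of an exon. Gch1 makes tetrahydrobiopterin and Rock2 is a kinase of the actin cytoskeleton.

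**Figure D2:**
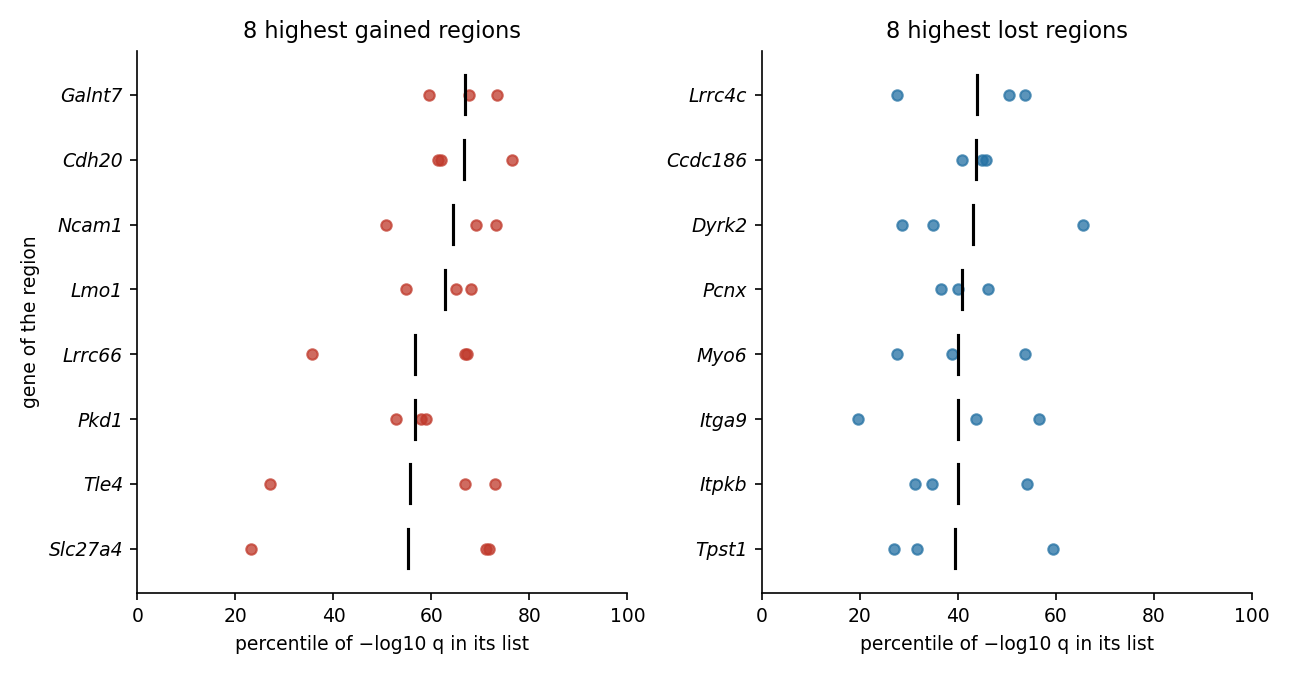
Percentile of −log10 q within its own list (x axis) for the 8 highest gained regions in the 3 IOP libraries and the 8 highest lost regions in the 3 contralateral libraries (points), with the mean as a black bar and the gene on the y axis. The gained means run from 55.3 to 66.8 and the lost means from 39.4 to 43.9.

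No measure of a whole list separated the groups beyond the spread of their libraries. The contralateral lists held 39202, 66160 and 41499 peaks (48954 ± 14945) and the IOP lists 51818, 44646 and 44568 (47011 ± 4163; SD, n = 3 each), with p = 1.00 for the difference (two-sided exact permutation test, smallest possible p = 0.1). Covered length was 22.507 ± 3.19 Mb in contralateral and 22.523 ± 0.938 Mb in IOP lists (p = 1.00), and the median peak width was 350.00 ± 68.5 and 353.67 ± 61.5 bp (p = 0.800, both exact permutation tests). The Jaccard index, the regions shared by a pair of lists over the regions called by either, averaged 0.656 within groups and 0.667 between them (p = 0.600, one-sided exact permutation test). All 4 adjusted p-values were 1.00 by these permutation tests. Contralateral replicate 2 stood apart: 12234 regions were called by its list alone, where each other list had 812 to 4147. It and IOP replicate 1 also had the shortest minimum peak, 116 and 119 bp against 152 to 157 bp in the other 4. Without contralateral replicate 2 the difference in peak number turned from −1943 to 6660.

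Where a single contralateral call kept a region from counting as gained, it mostly came from contralateral replicate 2. Of the 1153 regions just outside the rule, with 3 IOP lists and 1 contralateral list, the single contralateral call came from replicate 2 in 1078, from replicate 1 in 37 and from replicate 3 in 38. Their median mean percentile was 29.1, beside 25.9 in gained regions. Gained regions numbered 1232 without contralateral replicate 2, 480 without IOP replicate 1, 410 without IOP replicate 2 and 350 without IOP replicate 3. Lost regions numbered 1043 without contralateral replicate 1, 781 without replicate 3, and 451, 418 and 345 without IOP replicates 1, 2 and 3. Fewer lists make the rule easier to meet, so these counts rise by construction. With an equal 39202 peaks per list there were 236 gained and 170 lost regions. Exactly 3 of 6 lists called 5564 regions, of which 2.86% were gained, 3.24% lost and 93.9% mixed.

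**Figure D3:**
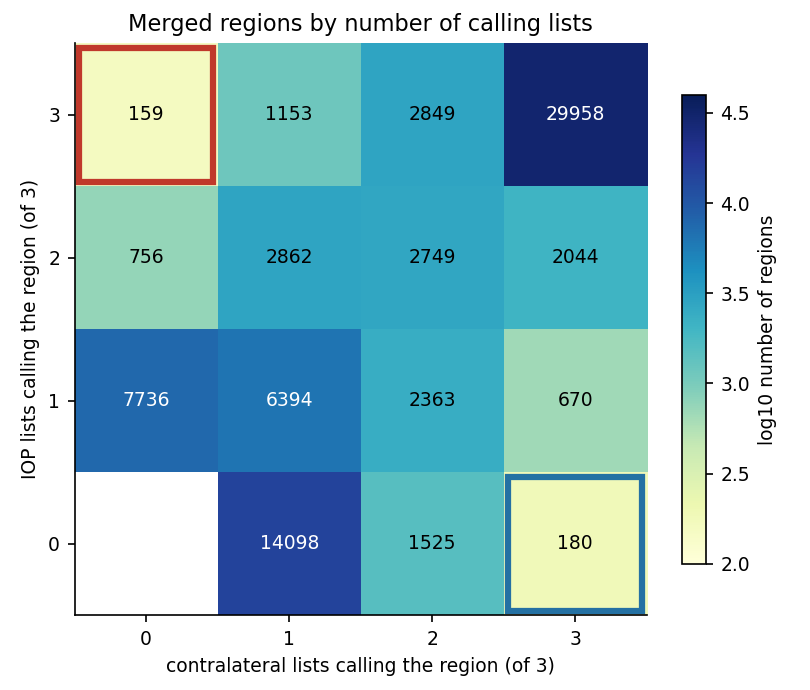
Number of merged regions (printed in each cell, colour on a log10 scale) by how many of 3 contralateral lists (x axis) and of 3 IOP lists (y axis) called them. The framed cells are the 159 gained and 180 lost regions, beside 1153 regions called in 3 IOP and 1 contralateral list and 29958 called in all 6.

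Gained and lost regions lay mostly away from promoters. Promoters, taken here as the 1000 bp before a start site and the 100 bp after it, held 7 of 159 gained (4.40%, 95% Wilson interval 2.15 to 8.81) and 7 of 180 lost regions (3.89%), beside 7.89% of mixed and 19.1% of all regions. Introns held 91 gained and 103 lost regions, 57.2% of each, beside 53.4% of mixed and 47.6% of all regions. Intergenic sequence held 53 gained (33.3%) and 62 lost regions (34.4%), and exons 8 of each. The median distance to the start of the assigned gene was 27782 bp in gained, 35810 bp in lost, 30774 bp in mixed and 20206 bp in all regions. The median of mixed regions lay between those of gained and lost regions. With an equal number of peaks the promoter share of gained regions was 11.9%, and with a promoter window of 2.5 kb in both directions it was 13.8% in gained and 11.7% in lost regions. No share of mixed or all regions was taken at these settings, so 7.89% and 19.1% are not comparable with them.

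**Figure D4:**
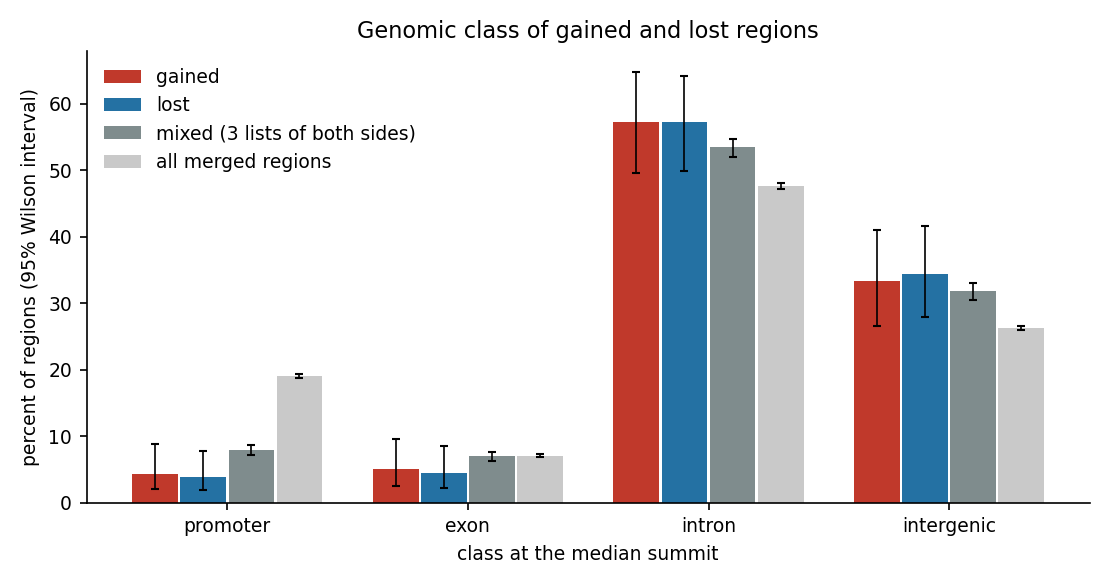
Percent of regions (y axis, bars with 95% Wilson intervals) at a promoter, in an exon, in an intron or between genes (x axis), for gained, lost, mixed and all merged regions. Promoters make up 4.40% of gained and 3.89% of lost regions against 19.1% of all regions.

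Few promoters of protein-coding genes were gained. Among them were those of Lrrc2, a leucine-rich repeat protein, of Ccdc194, of Fcgrt, the neonatal Fc receptor, and of Pdyn, the prodynorphin precursor of opioid peptides. The Lrrc2 region (chr9:110951479-110951729), 55 bp from the start site, had percentiles of 47.7, 37.3 and 60.5 and held a STAT and an AP-1 element. The region at Pdyn (8.52, 18.5 and 2.64) and that at Fcgrt (7.74, 27.3 and 11.2) had mean percentiles of 9.90 and 15.4.

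Lost promoters included those of Trpm1, the channel behind the light response of ON bipolar cells, Spata20, Far2 and Nhlh2, a neuronal helix-loop-helix factor. The Trpm1 promoter was at 23.4, 9.27 and 24.0, with calls in 2 of 3 young untreated lists. None of these 4 had a mean percentile above 24.3.

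Genes of 28 pathway and cell-type lists (622 genes) held 4509 merged regions, of which 10 were gained and 9 lost, near the shares over all merged regions (0.211% and 0.238%). The lists as a whole thus did not stand out, and their regions are given as a description. The cell adhesion list (643 regions) had gained regions at Cdh20 and Ncam1 and lost ones at Lrrc4c and Tenm4, a teneurin. The matrix list (105 regions) had 2 gained regions and 0 lost: one in an intron of Col4a1, a basement membrane collagen, at 37.7, 48.7 and 65.9, and one in an intron of Mmp16, a membrane-bound metalloproteinase, at a mean of 22.5 ± 21.8 (SD, n = 3). The Mmp16 region lay 104 bp from the nearest young contralateral peak. Kremen1, a receptor for Dickkopf proteins from the Wnt signalling list, held a gained intronic region at 34.3, 28.7 and 72.8. Tnfrsf1a, the main receptor of tumour necrosis factor, had one at 17.3, 49.5 and 49.4, and Smad5, a BMP effector, one at 16.3, 42.5 and 48.9. Slit3 (axon guidance), Esrrb (photoreceptor energy metabolism) and Keap1 (the NRF2 repressor) had 1 gained region each, at mean percentiles of 33.5, 24.0 and 9.55.

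On the lost side, the lists held regions at Ptf1a, a fate factor of amacrine and horizontal cells (34.0, 38.6 and 27.0, at -30456 bp from its start), and at Arnt2, a partner of hypoxia factors (20.2, 38.6 and 27.0, intron). The Ptf1a region lay 240 bp from the nearest young IOP peak. Il1r1, the interleukin 1 receptor, had one at 20.2, 38.6 and 19.7, at -70160 bp from its start. Aqp4, the water channel of Mueller glia, had an intronic region at a mean of 20.1 ± 12.4, and Cngb1, a subunit of the rod channel, one at 16.4 ± 13.3 (SD, n = 3). No list had more than 2 regions in one direction.

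Genes of the STAT pathway itself showed no exclusive region. Over 28 STAT, JAK and SOCS genes with 139 merged regions, 0 were gained and 0 lost, and 26 of the 28 promoters were called in all 6 lists. The reactive gliosis list (95 regions) and the list of AP-1 and early response genes (111 regions) likewise held 0 of each. At the background shares of 0.211% and 0.238%, lists of this size would hold few or none.

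Several genes carried more than 1 region. Gained regions came in pairs at Galnt7, Pdia4, Plcb4, Thsd7b, Fam78b and Cux1, and lost ones at Fmn1. Galnt7, Fmn1, Atp8a2, Capza3, Dlg2, Lrrc66 and Sv2b were the assigned gene of both gained and lost regions. In Galnt7 the lost region (chr8:57590146-57590671, at 8.85, 23.8 and 34.8) lay between its 2 gained regions. The pair of gained regions near Pdia4, a disulfide isomerase, stood at 41.4, 63.9 and 39.6 and at 4.90, 22.9 and 2.09, and both were called in all 3 old IOP lists and in no old contralateral list. They lay 357 and 433 bp from the nearest young contralateral peak. Only 13 gained and 13 lost regions lay within 500 bp of a peak of the other side, and the median gap was 5340 and 8104 bp.

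The old retinas offered libraries that had no part in choosing these regions. The gained regions were called in 68.8 ± 9.74% on average by 18mo IOP lists and in 48.2 ± 6.02% by 18mo contralateral lists (SD, n = 3 each). The lowest IOP list (57.9%) lay above the highest contralateral list (54.7%). Mixed regions went the other way, with 38.8 ± 16.4% in IOP and 65.8 ± 8.19% in contralateral lists. Over all merged regions the shares were 54.0 ± 7.76% in IOP and 65.9 ± 3.63% in contralateral lists. The old contralateral lists held 56406 ± 4856 peaks and the old IOP lists 44474 ± 7329 (SD, n = 3 each), and the part of this in these shares was not tested. Lost regions were called in 30.4 ± 16.2% by old IOP and 67.2 ± 6.10% by old contralateral lists, which was near the mixed regions. More old IOP than old contralateral lists called 78 of 159 gained regions (49.1%) and 12 of 180 lost ones, beside 10.7% of mixed and 5.91% of all regions. The reverse held for 42 gained and 127 lost regions (70.6%), beside 61.5% of mixed and 30.6% of all regions.

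Of the gained regions, 33 were called by 3 old IOP and 0 old contralateral lists, a pattern met by 0.201% of all merged regions and by 12 of the 5225 mixed ones. Of the lost regions, 19 were called by 0 old IOP and 3 old contralateral lists (1.95% of all merged regions, 302 mixed ones). The 33 held the STAT element in 8 windows (24.2%) and CRX/OTX2 in 13. Of all 151 windows with this pattern in old retina, the 33 included, 34 (22.5%) held the STAT element. Without young IOP replicate 1 there were 60 such gained regions, and 21 when the peaks of a list had to cover 50% of a region. The 19 lost regions became 71 without young contralateral replicate 1, 54 without replicate 3 and 38 without young IOP replicate 1, again over larger sets of lost regions. In 19 of the 33, no untreated list of either age called the region. Lmo1, Col4a1, Lrrc2 and Smad5 were among these 19. The Lmo1 region stood at 66.1, 71.5 and 66.1 in the old IOP lists and Lrrc2 at 68.4, 69.3 and 62.7, and both were called in none of the 12 lists without pressure. Col4a1 was more variable, at 2.90, 60.8 and 39.6.

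A gained region could also be called on both sides in old retina and still rank apart. All 6 old lists called 18 of the gained regions. In 5 of these 18 (27.8%), every old IOP library ranked the peak above every old contralateral library, where 1.19% of the 29704 merged regions called in all 6 old lists did. In 0 of the 18 did every IOP library rank it below, which 26.9% of all such regions did. The Galnt7 region stood at 74.2, 78.8 and 64.0 in old IOP lists and at 15.0, 14.8 and 36.0 in old contralateral lists. Near Ncam1 the values were 64.8, 78.4 and 72.5 against 14.8, 3.34 and 1.26. Tuft1, Vamp9 and Gnaz were the other 3, named after their values were seen. With 3 lists against 3, no separation can have a p below 0.1 by an exact permutation test. The 5 regions were picked for their separation, so no p-value is given for them. Of 8 lost regions called in all 6 old lists, 2 (at Fmn1 and Dpf3) ranked below in every IOP list and 0 above. That is 25.0%, near the 26.9% of all such regions.

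**Figure D5:**
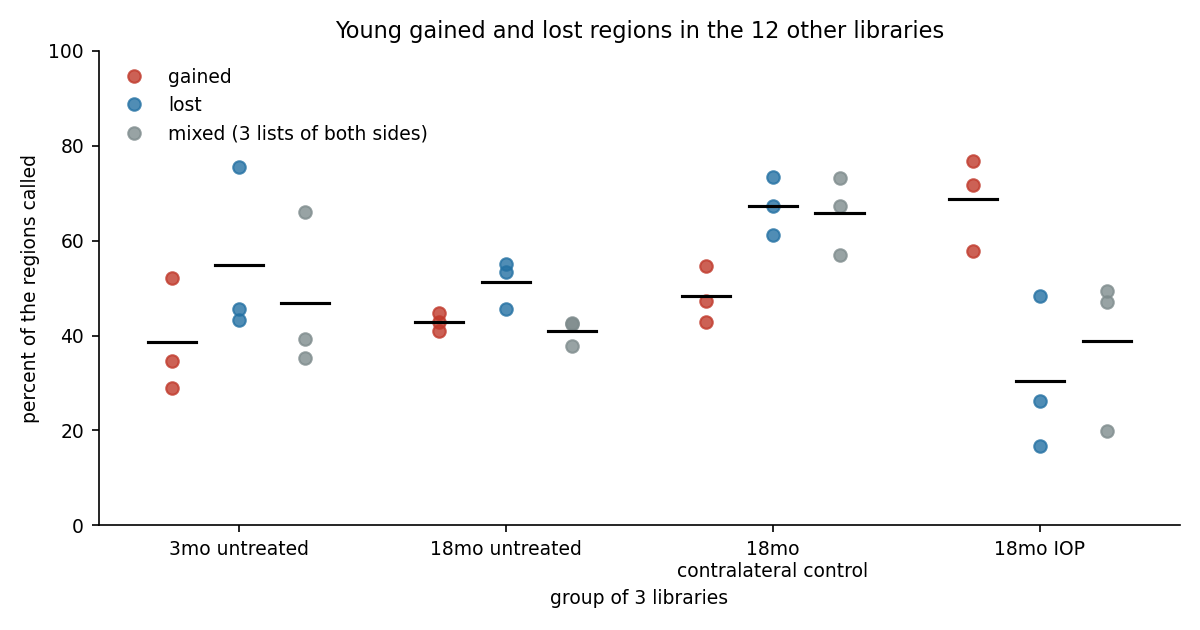
Percent of the young gained, lost and mixed regions (y axis) called by each of the 12 other libraries (points, black bar for the mean of 3), by group (x axis). In 18mo IOP the gained regions lie at 57.9 to 76.7% and the lost ones at 16.7 to 48.3%, and in 18mo contralateral controls the gained ones lie at 42.8 to 54.7% and the lost ones at 61.1 to 73.3%.

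In untreated young retinas, the gained regions were called in 38.6 ± 12.1% and the lost ones in 54.8 ± 18.0% on average (SD, n = 3), and the ranges of 28.9 to 52.2% and 43.3 to 75.6% overlapped. Over all merged regions the mean was 57.4 ± 7.77%. None of the 3 untreated young lists called 60 gained (37.7%) and 33 lost regions (18.3%), beside 24.8% of mixed and 29.5% of all regions. All 3 called 25 gained (15.7%) and 48 lost regions (26.7%), beside 21.4% of mixed and 45.2% of all regions. Galnt7 was one of the 25, at 51.6, 49.8 and 59.0, so its highest-ranked region was missing from the young contralateral lists alone of all 18. The lost Ccdc186 region was called in all 12 other lists, at 30.4 to 61.9 in young untreated ones. None of the 12 other lists called 1 gained and 3 lost regions, beside 142 of the 5225 mixed regions and 10655 of all 75496. Untreated libraries had narrower peaks than the other groups (a median width of 171.67 ± 10.5 bp at 3mo), and its part in these counts was not tested.

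Rod markers matched the tissue named on the labels, and markers of other retinal cells did so in part. The promoters of 5 of 5 rod markers, among them Nrl, were called in all 6 young lists. The same held for 2 of 4 cone, 2 of 4 bipolar, 3 of 4 amacrine and 2 of 3 horizontal cell markers. The promoters of 4 of 4 lens markers, 4 of 4 microglia and blood markers and 2 of 2 liver markers were called in none. In the longer list of 19 microglia and complement genes, 17 promoters were called in none and 2, C1qc and Irf8, in all 6. Of the 4 vessel markers, 3 were called in none and Pdgfrb in 2 IOP and 1 contralateral lists. Of the Mueller glia markers, Glul and Sox9 were called in all 6 lists, Rlbp1 in 2 IOP and 1 contralateral lists and Aqp4 in none. Of the ganglion cell markers, Pou4f1 was called in all 6, Rbpms in 3 IOP and 2 contralateral lists, and Pou4f2 and Slc17a6 in none. In the retinal pigment epithelium list Rpe65, Best1 and Tyr were in none and Pmel in 3 IOP and 2 contralateral lists. In whole tissue, fewer cells of a type and less open chromatin per cell cannot be told apart.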

How the data were processed

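ATAC-seq peak lists of 18 libraries of whole mouse retina were analysed, 6 of them young IOP and contralateral libraries. The submitters' processing notes name STAR 2.7.8a, MACS2, HOMER, edgeR, bedtools 2.29.2 and the mm10 genome. The authors called peaks in each library at q of at most 0.05 without pooling replicates. Read filters and a correction for the transposase offset are not given in the sources used here. The preparation text of the labels describes crosslinking and immunoprecipitation beside the ATAC-seq libraries. The deposited lists hold the position and summit of each peak, a score (10 times −log10 q), the fold over local background, and −log10 of the p-value and q-value. The deposited −log10 q was used only to rank or filter peaks within a list. The depth behind a list is not among the deposited values. From the steps of the deposited fold, it was estimated at 18.2 to 28.3 M tags in the 6 lists. The lists hold no counts, so the count model of edgeR that the authors used could not be applied.

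Peaks of the 6 lists were merged (overlap of at least 1 bp) and each region was scored by the lists that called it. Regions were assigned at the median summit with GENCODE M21 basic: to the protein-coding gene that holds the summit, otherwise to the nearest start site. Motifs were searched in 200 bp windows of GRCm38. 87 regions off the main chromosomes had no window. Library values were compared with exact permutation tests, adjusted by Benjamini-Hochberg over 4 tests. The labels do not say that replicates came from separate animals, so p-values measure the spread between libraries only. Intervals cover counting error only. Steps were checked on simulated lists. The members, gene lists and motifs were chosen with earlier results of these data known. Regions were named when among the 12 highest of a direction, at a protein-coding promoter, at a listed gene, or at a gene with 2 or more regions. A few items that this rule names are not reported here. Alternatives were a stricter q of 0.01, a 50% cover, equal peak numbers, 18 merged lists, a 100 bp gap, left-out libraries, pairing, wider promoters and midpoints. The analysis used Python 3.11.15, numpy 2.4.6, pandas 2.3.3, scipy 1.17.1 and pysam 0.24.0.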

Additional observations from a re-analysis of the deposited data

How the results depend on the processing

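The stricter q of 0.01, the merge of all 18 lists and the 100 bp gap left every count and share within the limits used (counts within 1.5 times, shares within their 95% interval). With a 50% cover, gained regions numbered 252, those of the same direction in old retina 21, and the mean share of gained regions called by the 12 other libraries was 70.4%. With an equal number of peaks the last share was 64.8% and the promoter share of gained regions 11.9%. In the main setting, the mean share of gained regions called was 68.8% in 18mo IOP and 48.2% in 18mo contralateral lists. It was 42.8% in 18mo untreated and 38.6% in 3mo untreated lists. Over all merged regions these shares were, in the same order, 54.0%, 65.9%, 55.5% and 57.4%. Wider promoters gave 13.8% of gained and 11.7% of lost regions. The cause of these shifts was not tested, except that a wider promoter holds more regions by construction. With only the 4 libraries of longer shortest peak (2 per group), the difference in peak number turned to 4256 (p = 0.333) and that in median width to -0.500 bp (p = 1.00, exact permutation tests), 2157 regions were gained and 558 lost, 73 and 45 of them in the same direction in old retina, and 8.35% of gained windows held the STAT element. Windows of 100 and 400 bp held it in 7.59% and 24.7% of gained and, at 400 bp, 12.8% of lost regions. Alternatives for the STAT element and for the other libraries were chosen after seeing the data.

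Over the 6 settings that leave out 1 library each, the difference in peak number ran from -6819 to 6660, in covered length from -1.14 to 1.84 Mb, in median width from -35.8 to 39.0 bp, and in similarity from -0.0280 to 0.00466. Gained regions ran from 198 to 1232 and lost ones from 257 to 1043. Promoter shares ran from 3.54 to 9.50% of gained and 3.50 to 6.66% of lost regions, intron shares from 54.4 to 61.1% and 53.9 to 59.5%, and intergenic shares from 25.7 to 33.3% and 29.2 to 36.2%. STAT shares ran from 7.56 to 16.2% of gained and 4.35 to 5.45% of lost windows. Regions of the same direction in old retina ran from 33 to 60 and 25 to 71, and mean shares called by the 12 other libraries from 36.8 to 63.3% and 34.5 to 57.6%.

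With same-numbered libraries taken as pairs (replicate block), the differences were -1943 peaks, 0.0161 Mb and 3.67 bp, each with p = 1.00 (exact sign-flip permutation test, smallest possible p = 0.25). The labels do not say that a number marks an animal. The correlations of the deviations of same-numbered libraries were -0.0447, -0.0406 and 0.0338, and 1 of 3 IOP libraries correlated best with its own number. The block changed no call.

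Of 35 gained regions named by the rule, 18 stayed 3 lists apart with a 50% cover and 18 with an equal number of peaks, and of 26 lost ones 19 and 11. At q of 0.01 these were 34 and 26. None reversed.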
